A study of Mus musculus with 24 samples.

Results

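The step from embryonic day 11 (E11) to embryonic day 12 (E12) was followed in the mandibular prominence of mouse embryos heterozygous for p63. This prominence, part of the first pharyngeal arch, gives rise to the lower jaw, and p63, the product of Trp63, is a transcription factor of the surface epithelium. The comparison rests on 6 of the 24 arrays of the series, namely those whose labels give the genotype p63+/- and the stage E12 or E11. The E12 group holds 3 arrays of p63+/- prominences and the E11 group holds 3 arrays of p63+/- prominences 1 day younger. Each array carries the RNA of the whole prominence of 1 untreated embryo, each from a different litter, with no pooling. Both groups carry 1 mutant copy of Trp63, the germline Trp63tm2Brd allele of the B6.129S7-Trp63tm2Brd/J strain, so neither group is wild type. The other arrays of the series hold p63-/- prominences at the same stages and prominences of both genotypes at E10 and E13. All E12 arrays lie on 1 slide and all E11 arrays on another, so stage and slide cannot be told apart in this comparison.

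In this period the lower jaw primordium passes from a largely undifferentiated swelling of neural crest mesenchyme under a thin epithelium to a tissue with committed cell types. As background, myoblasts that have entered the arch switch on Myog and then the contractile proteins, mesenchyme condenses into Meckel's cartilage and later bone, the oral epithelium thickens into the dental lamina, and branches of the trigeminal nerve with their Schwann cell precursors grow in. Blood in the arch at this time is mostly the primitive erythroid wave from the yolk sac. Since each sample was whole tissue, fewer cells of a type and less RNA per cell cannot be told apart.

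Levels are normalized log2 intensities of bead arrays, on which a difference of 1 is a 2-fold difference, and values are given in the order of replicates 1, 2 and 3. Detected probes made up 46.32, 46.22 and 46.7% of all probes on the E12 arrays, against 43.6, 45 and 44.82% on the E11 arrays. Arrays of the same group correlated at 0.987 to 0.994 across genes, and E12 with E11 arrays at 0.966 to 0.987. 2 arrays stood apart in several of the gene groups below. E12 replicate 3 lay nearer to the E11 arrays than its 2 E12 partners in contractile, matrix and early embryonic genes, and it had the highest neuronal level. E11 replicate 2 lay farthest from the E12 arrays in the same contractile, matrix and early embryonic genes, and it carried genes of visceral yolk sac endoderm: the fetal serum protein Afp was 7.20, 6.37 and 7.75 at E12, against 4.84, 9.56 and 6.89 at E11. The mean of 11 such genes was 6.67, 6.53 and 7.16 at E12, against 6.29, 8.36 and 6.94 at E11. Xist, transcribed from the inactive X chromosome of females, was 11.78, 11.49 and 11.70 at E12, against 5.64, 11.28 and 5.22 at E11, so that all 3 E12 arrays but only 1 of the E11 arrays had a high level. Runs without single arrays and with the Xist level as a covariate are given below and show how the calls shifted. The causes of these differences between arrays were not tested.

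The tissue label was set against its markers. Mesenchyme markers of the mandibular prominence were well detected on all 6 arrays: Msx1 was 13.19, 12.96 and 12.78 at E12, against 12.95, 12.67 and 12.87 at E11, and Twist1 was 12.73, 12.73 and 12.37 at E12, against 12.69, 12.33 and 12.47 at E11. Hand2, which marks the distal lower jaw, was 10.39, 9.68 and 9.77 at E12, against 9.58, 9.76 and 9.80 at E11. The epithelial cadherin Cdh1 was 10.32, 9.69 and 9.82 at E12, against 10.06, 10.00 and 10.17 at E11. All of these overlapped between the stages. Hoxa2, which is expressed in the second and more posterior arches but not in the first, was 5.42, 7.73 and 9.31 at E12, against 5.05, 6.05 and 6.48 at E11. Its level on E12 replicate 3 was above those on the other 5 arrays. Of 11 Hox genes measured, 0 were called in either direction, against 10.1% of all genes. The list is too small to tell 0 from that share.

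Trp63 itself was 10.66, 10.22 and 10.40 at E12, against 10.94, 10.87 and 10.82 at E11. The E12 arrays lay below the E11 arrays without overlap, but the difference of -0.45 ± 0.24 (SE) did not pass the test (limma with Benjamini-Hochberg adjustment, adjusted p = 0.216). On the p63-/- arrays the same probe read 9.59, 9.11 and 9.33 at E12 and 9.87, 9.89 and 9.03 at E11, each below all 6 p63+/- arrays. Where this probe lies relative to the deleted part of the gene was not determined.

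Of 12698 genes tested with limma, 667 were called higher at E12 (5.25%) and 610 lower (4.80%) at an adjusted p under 0.05. The larger changes were mostly rises: 210 genes (1.65%) were called higher by at least 1 on the log2 scale and 71 (0.559%) lower by that much. The median change over all genes was -0.01. The E12 and E11 arrays did not overlap for 4666 genes (36.7%). These counts depended on single arrays: 146 genes were called without E12 replicate 2, 234 without E11 replicate 2, 510 without E12 replicate 1 and 592 without E11 replicate 1, against 1277 with all arrays. Without E12 replicate 3 the count was 1481 (840 higher and 641 lower), and without E11 replicate 3 it was 994. With the Xist level as a covariate, an alternative added after the data were seen, 1261 genes were called, of which 1003 were among the 1277.

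**Figure D1:**
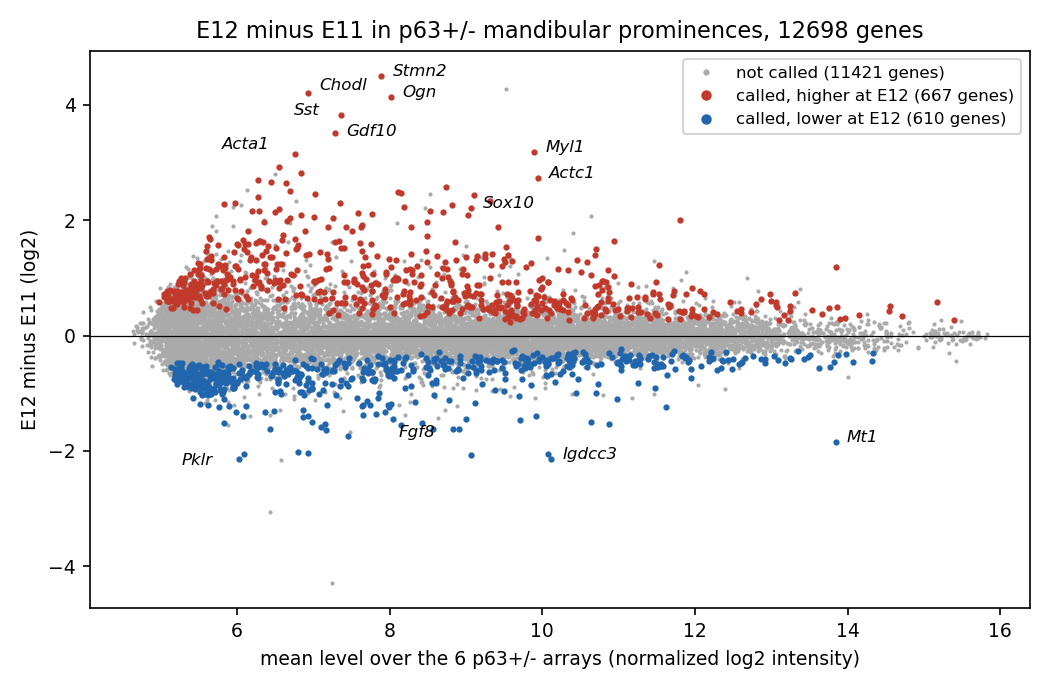
Each of 12698 genes is placed by its mean level over the 6 p63+/- arrays (horizontal axis, normalized log2 intensity) and by its E12 minus E11 difference (vertical axis, log2). Red points are the 667 genes called higher at E12, blue points the 610 called lower and grey points genes not called; the rises reach 4.50 for Stmn2, and the called falls of genes detected at both stages reach -2.14 for Igdcc3. Genes not detected at a stage, such as Chodl and Pklr, are drawn at their measured difference.

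The list of sarcomere and muscle excitation genes had the highest number of calls, though not the highest share of its members. Of its 25 measured members, 13 were called higher at E12 and 0 lower, against 5.25% and 4.80% of all genes, with a median change of 1.40 against -0.01. Upstream regulators were also called higher: Myog, which drives myoblasts into terminal differentiation, was 8.23, 8.21 and 7.39 at E12, against 5.44, 4.63 and 6.26 at E11, where it was detected on 1 of 3 arrays. Its difference was 2.50 ± 0.45 (SE, adjusted p = 0.00592), and the groups did not overlap. Myod1, the factor that commits cells to the muscle lineage, was 8.60, 7.93 and 7.75 at E12, against 6.67, 5.51 and 7.21 at E11, a difference of 1.63 ± 0.35 (adjusted p = 0.0106). Mef2c, a cofactor of both, rose by 0.95 ± 0.23 (adjusted p = 0.0193), and of its 3 other probes 1 differed in sign at -0.12. Six4, a homeobox gene that acts earlier in muscle precursors, was lower at E12 by -0.71 ± 0.21 (adjusted p = 0.0412). In the list of 11 muscle specification genes these 3 were the calls upward and Six4 the call downward. Over all genes the shares were 5.25% and 4.80%, and the median of the list was 0.44. Members that did not pass included Tcf21 and Msc, both known from jaw muscle precursors, with changes of -0.32 and 0.54. Myog held in all 24 runs, Myod1 was lost without E11 replicate 2 (adjusted p = 0.064), Mef2c without that array or E12 replicate 1 or 2 (highest 0.116) and Six4 in 6 runs, among them those without replicate 1 or 2 of either stage (highest 0.181). Myod1, Mef2c and Six4 were also not called when the 6 arrays were fitted alone, nor was Six4 with the authors' processed values (highest adjusted p = 0.0619, 0.0525 and 0.0658 over these).

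The highest changes among the contractile genes were those of light chains and actins. Myl1, a fast myosin light chain, was 12.03, 12.15 and 10.28 at E12, against 8.40, 6.95 and 9.56 at E11, a difference of 3.18 ± 0.67 (adjusted p = 0.00979), and 2 other probes differed by 1.84 and 0.91, the second without passing. Actc1, the actin of the heart and of embryonic skeletal muscle, was 11.70, 11.72 and 10.51 at E12, against 8.80, 7.45 and 9.48 at E11, a difference of 2.74 ± 0.54 (adjusted p = 0.0078). Acta1, the skeletal muscle actin, was 8.71, 9.30 and 6.98 at E12, against 5.01, 4.78 and 5.76 at E11, where it was detected on 1 of 3 arrays, and rose by 3.14 ± 0.66 (adjusted p = 0.0097). In all 3 genes E12 replicate 3 was the lowest E12 array and E11 replicate 2 the lowest E11 array, and the stages did not overlap. Tnnc1, troponin C of slow and cardiac muscle, was 10.57, 10.83 and 8.67 at E12, against 7.06, 7.19 and 8.11 at E11, a rise of 2.57 ± 0.60 (adjusted p = 0.0148). The other 9 calls ran between 0.70 for the tropomyosin Tpm2 and 2.48 for the embryonic and atrial light chain Myl4, and they included Chrng, the fetal subunit of the muscle acetylcholine receptor, at 1.92. Members that did not pass included the cytoskeletal protein Des and the calcium release channel Ryr1, with changes of -0.06 and 0.20. The number of contractile genes called was 1 without E12 replicate 2, 2 without E11 replicate 2, 5 without E12 replicate 1 and 6 without E11 replicate 1, and it was 16 without E12 replicate 3 and 6 with the authors' processed values. Actc1 was lost without E12 replicate 2 (adjusted p = 0.0502), Myl1 and Acta1 without that array or E11 replicate 2 (highest adjusted p = 0.0641 and 0.0599), Tnnc1 without replicate 1 or 2 of either stage (highest 0.0878), and Acta1 also with the authors' processed values.

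The start regions of the 3 light chain and actin genes are shown because these genes carried the largest contractile changes. As background, the CArG box is bound by serum response factor and CAGCTG is a form of the E-box, CANNTG, that the Myod1 and Myog proteins bind. The sequences below are RefSeq promoters on build GRCm38.p6, from 250 bases before to 50 bases after the gene start and written 5′ to 3′ on the gene's strand, with matches to the CArG box or to CAGCTG on either strand in capitals.
Acta1, chr8:123894726-123895025, minus strand: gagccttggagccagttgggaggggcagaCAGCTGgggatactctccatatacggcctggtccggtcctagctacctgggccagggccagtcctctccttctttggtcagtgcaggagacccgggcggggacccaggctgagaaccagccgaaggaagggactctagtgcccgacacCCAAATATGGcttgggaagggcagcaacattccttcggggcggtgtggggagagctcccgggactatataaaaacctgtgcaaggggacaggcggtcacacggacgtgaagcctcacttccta
Actc1, chr2:114052826-114053125, minus strand: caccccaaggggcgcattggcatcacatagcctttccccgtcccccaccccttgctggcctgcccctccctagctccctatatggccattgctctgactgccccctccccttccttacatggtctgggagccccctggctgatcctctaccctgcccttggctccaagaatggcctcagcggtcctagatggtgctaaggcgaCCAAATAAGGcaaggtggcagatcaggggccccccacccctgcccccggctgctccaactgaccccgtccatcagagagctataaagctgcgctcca
Myl1, chr1:66945007-66945306, minus strand: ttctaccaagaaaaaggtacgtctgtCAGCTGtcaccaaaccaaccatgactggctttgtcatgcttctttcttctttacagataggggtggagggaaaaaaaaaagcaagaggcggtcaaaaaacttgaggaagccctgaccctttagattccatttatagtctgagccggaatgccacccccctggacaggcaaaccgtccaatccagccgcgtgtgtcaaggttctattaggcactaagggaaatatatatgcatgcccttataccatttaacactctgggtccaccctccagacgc
Acta1 held 1 CArG box and 1 match to the narrower E-box form. Actc1 held 1 CArG box and no such E-box, and Myl1 held 1 such E-box and no CArG box. Of 32851 promoters of this length, 1.63% held a CArG box and 16.3% held the narrower E-box. Among the 13 contractile genes called, the promoters of 2 held a CArG box and those of 6 held the narrower E-box. The wider E-box, of which each narrower match is also a match, was held by 12 of the 13 and by 72.3% of all promoters. These matches are descriptions of the letters in this window.

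The list of fibroblast and connective matrix genes came next by number of calls. Of 21 measured members, 8 were called higher at E12 and 0 lower, against 5.25% and 4.80% of all genes, all 21 had a positive change, and the median was 1.32. Ogn, the small proteoglycan osteoglycin, was 11.15, 11.03 and 8.10 at E12, against 6.15, 4.69 and 7.00 at E11, a difference of 4.15 ± 0.82 (adjusted p = 0.00782), with no overlap. 2 other probes for Ogn rose by less, by 1.43 and 1.55. Col6a1, a chain of collagen VI, was 12.21, 12.19 and 10.89 at E12, against 10.33, 9.24 and 10.81 at E11, a difference of 1.64 ± 0.45 (adjusted p = 0.0299), and its 2 other probes differed by 1.74 and, without passing, 0.25. E12 replicate 3 lay only just above the highest E11 array for Col6a1, and below it for the partner chain Col6a2. Thbs2, a matricellular thrombospondin, rose by 1.56 ± 0.45 (adjusted p = 0.0369). Collagen I and the proteoglycan decorin did not pass: Col1a1 was 10.98, 11.69 and 10.40 at E12, against 9.67, 9.03 and 9.92 at E11, and the change of 1.49 ± 0.68 had an adjusted p of 0.154, while the change of 2.07 ± 0.72 for Dcn had one of 0.0693. The count of matrix genes was 0 without E12 replicate 2, 1 without E12 replicate 1 or E11 replicate 2, 2 without E11 replicate 1 and 13 without E12 replicate 3. The call of Ogn was lost without E12 replicate 2 (adjusted p = 0.0513), and those of Col6a1 and Thbs2 without any 1 of replicates 1 and 2 of either stage (highest adjusted p = 0.165 and 0.163), and both also when the 6 arrays were fitted alone or, for Thbs2, with quantile normalization or the authors' processed values (highest 0.161).

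Gdf10, Chodl, Col8a1 and Avpr1a were among the 15 genes with the highest measured differences. Gdf10, a ligand of the TGF-beta family also called Bmp3b, was 9.43, 9.77 and 7.92 at E12, against 5.05, 5.27 and 6.27 at E11, where it was detected on 1 of 3 arrays. Its difference of 3.51 ± 0.61 (adjusted p = 0.00562) held in all 24 runs that left out 1 array. Chodl, a membrane lectin called chondrolectin, was 10.72, 10.18 and 6.20 at E12, against 4.84, 4.74 and 4.89 at E11. Since it was not detected on any E11 array, it is given as at least 10.7-fold higher at E12 (adjusted p = 0.0146). Such a bound compares the mean level of the stage in which a gene was detected with the lowest signal of any detected probe on the arrays of the other stage. Col8a1, a short-chain collagen, was 8.72, 8.78 and 5.40 at E12, against 4.85, 4.75 and 5.17 at E11, and was at least 4.04-fold higher at E12 (adjusted p = 0.0236), with E12 replicate 3 close to the E11 arrays. Avpr1a, a vasopressin receptor, showed the same split, at 9.53, 9.13 and 6.06 at E12, against 5.43, 5.02 and 5.83 at E11 (2.81 ± 0.75, adjusted p = 0.0257), and its other probe changed by 0.62 without passing. Chodl was lost without E11 replicate 2 or without E12 replicate 1 or 2 (highest adjusted p = 0.0822), and Col8a1 and Avpr1a without any 1 of replicates 1 and 2 of either stage (highest adjusted p = 0.133 and 0.13). These 3 were also not called when the 6 arrays were fitted alone.

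Of 16 cartilage genes measured, 2 were called higher and 0 lower (median 0.24), against 5.25% and 4.80% of all genes, and defining genes of cartilage did not pass: Sox9, the master regulator of cartilage, was 13.10, 13.89 and 13.26 at E12, against 13.03, 13.13 and 12.91 at E11, and Col2a1, its collagen target, was 11.44, 12.48 and 12.05 at E12, against 12.27, 12.28 and 11.94 at E11. The calls were Matn4, a matrilin, and Wwp2, a ubiquitin ligase that Sox9 activates in cartilage. Matn4 was 8.44, 9.38 and 6.21 at E12, against 4.73, 4.97 and 5.58 at E11, and was at least 5.26-fold higher at E12 (adjusted p = 0.0138), while 2 other probes for it changed by 0.44 and 0.98 without passing. Wwp2 had a difference of 0.72 ± 0.18 (adjusted p = 0.0205) on its brightest probe, but another probe was called in the other direction at -0.82, so no direction is given for the gene, and the call was lost when the 6 arrays were fitted alone. Of 8 bone genes measured, 1 was called higher, against 5.25% of all genes, and it was Pth1r, the parathyroid hormone receptor, at 0.45 ± 0.14 (adjusted p = 0.0488), and that call was lost in 17 of the 24 runs and under 6 other alternatives (highest adjusted p = 0.189). Alpl, the bone alkaline phosphatase, was 8.37, 8.60 and 6.97 at E12, against 6.51, 6.68 and 6.67 at E11, a change of 1.36 ± 0.44 that did not pass (adjusted p = 0.0553). Without E12 replicate 3, 5 of the 8 bone genes were called higher, against 840 of all 12698 genes in that run. The call of Matn4 was lost without E11 replicate 2 or E12 replicate 1 or 2 (highest adjusted p = 0.0878), with the authors' processed values and when the 6 arrays were fitted alone.

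**Figure D2:**
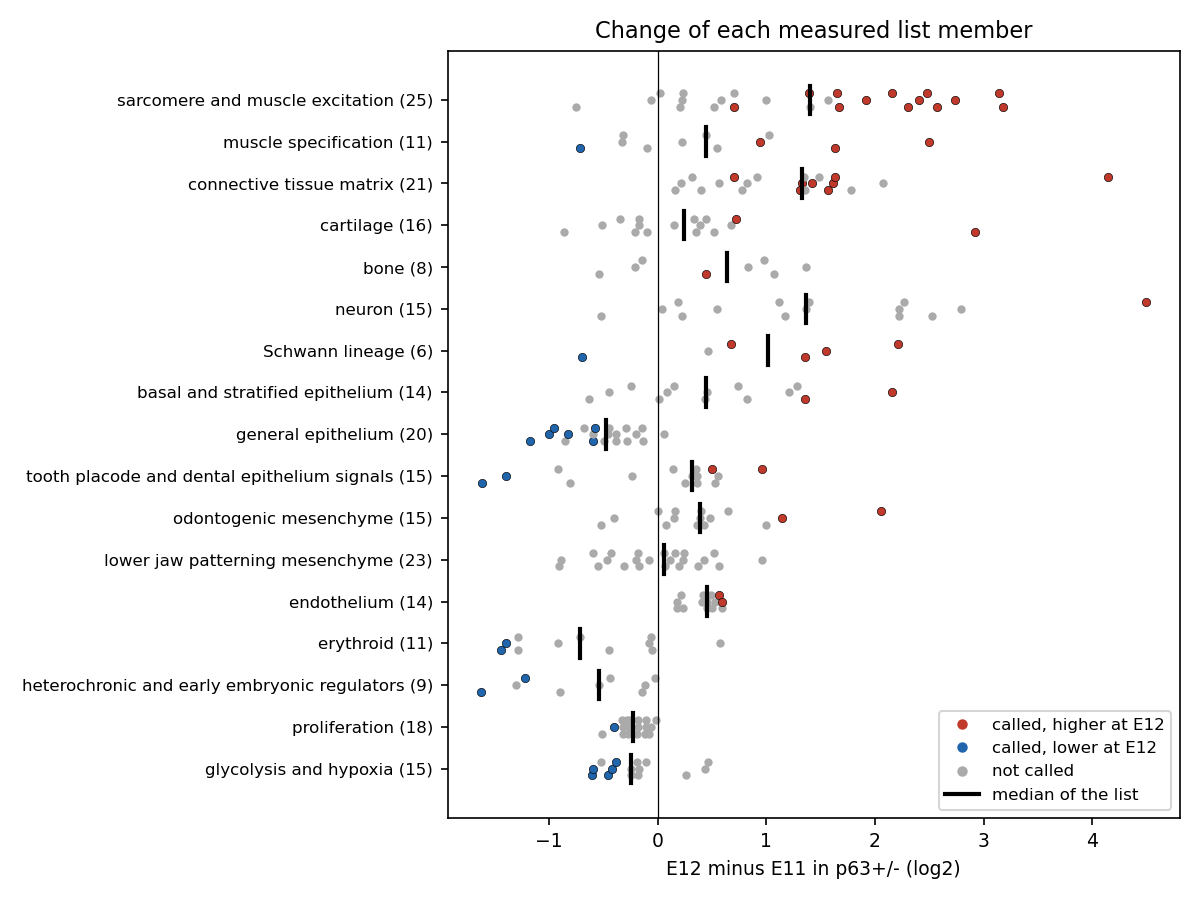
Each point is 1 measured member of a gene list, placed by its E12 minus E11 difference in p63+/- (log2); red and blue points were called higher and lower at E12, grey points were not called, and the vertical bar is the median of the list, whose number of measured members stands in brackets. Contractile and matrix lists lie to the right with medians of 1.40 and 1.32, and the erythroid and heterochronic lists to the left with medians of -0.72 and -0.54.

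Among neuronal genes 1 call stood beside a wide spread of the E12 arrays. Stmn2, a tubulin-binding protein of growing axons, was 9.18, 10.12 and 11.13 at E12, against 5.68, 5.65 and 5.59 at E11, the highest measured difference of all genes tested at 4.50 ± 0.67 (adjusted p = 0.00215), and it held in all 24 runs that left out 1 array. It was the 1 member called of 15 neuronal genes measured, a share near the 5.25% of all genes called higher, and the median change was 1.36. Pou4f1, a transcription factor of sensory ganglion neurons named here after its values were seen, was 4.63, 8.78 and 10.28 at E12, against 4.86, 5.23 and 5.22 at E11. It was detected on 2 of 3 E12 arrays and no E11 array, and did not pass (adjusted p = 0.181). Nefm, a neurofilament subunit chosen likewise, was 7.44, 10.31 and 10.96 at E12, against 7.66, 6.11 and 8.27 at E11. For both genes E12 replicate 1 lay at or within the E11 levels and the other E12 arrays above them. The mean of the neuronal list followed the same order, at 6.73, 8.21 and 9.04 at E12, against 6.54, 6.38 and 6.64 at E11. Without E12 replicate 1, 4 of the 15 neuronal genes were called higher, against 284 of all 12698 genes in that run.

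Genes of the Schwann cell lineage were more even across the E12 arrays. Of 6 measured, 4 were called higher and 1 lower, against 5.25% and 4.80% of all genes. Sox10, the factor of neural crest and glial precursors, was 9.68, 10.33 and 10.53 at E12, against 8.28, 6.53 and 9.09 at E11, a rise of 2.21 ± 0.45 (adjusted p = 0.00892). Ngfr, the low-affinity neurotrophin receptor, was 9.44, 10.02 and 9.59 at E12, against 8.55, 7.78 and 8.66 at E11, a rise of 1.35 ± 0.25 (adjusted p = 0.00623). Gfra3, the artemin receptor, was not detected on any E11 array and was at least 1.70-fold higher at E12 (adjusted p = 0.00592), while a second probe changed by 0.14. Mbp, known as a myelin protein, was the call downward at -0.69 ± 0.15 (adjusted p = 0.0106), but 2 other probes for it changed by 0.47 and 0.43 without passing. Ngfr and Gfra3 held in all 24 runs, Sox10 was lost without E12 replicate 2 (adjusted p = 0.0502) and when the 6 arrays were fitted alone (highest 0.065), and Mbp without E11 replicate 2 or E12 replicate 2 (highest adjusted p = 0.0637).

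Sst, Insm1 and Mmd2 were also among the 15 highest measured differences. Sst, the peptide hormone somatostatin, was 7.92, 8.47 and 11.44 at E12, against 5.25, 5.37 and 5.72 at E11, where it was detected on 1 of 3 arrays. Its rise of 3.83 ± 0.67 (adjusted p = 0.0058) held in all 24 runs. Insm1, a zinc finger factor of neuronal and neuroendocrine progenitors, was 6.72, 7.61 and 9.01 at E12, against 4.87, 5.16 and 5.31 at E11, where it was not detected, and was at least 4.48-fold higher at E12 (adjusted p = 0.023). Both genes were highest on E12 replicate 3, as were Stmn2 and Pou4f1. Of 5 foregut endoderm genes, Sst was the 1 called higher and 0 were called lower, against 5.25% and 4.80% of all genes. The list is too small to set against those shares. Foxa1, a defining endodermal factor, was 7.76, 7.80 and 8.52 at E12, against 8.90, 8.79 and 8.80 at E11. Mmd2, a membrane protein of the progestin receptor family, was 7.31, 8.36 and 8.24 at E12, against 4.98, 4.84 and 6.14 at E11, where it was detected on 1 of 3 arrays (2.65 ± 0.78, adjusted p = 0.0381). Insm1 was lost in 4 of the 24 runs, those without replicate 1 or 2 of E11 or replicate 2 or 3 of E12 (highest adjusted p = 0.079), and Mmd2 in 5 (highest 0.144), those without any E12 array or E11 replicate 1 or 2. Neither was called with the authors' processed values.

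**Figure D3:**
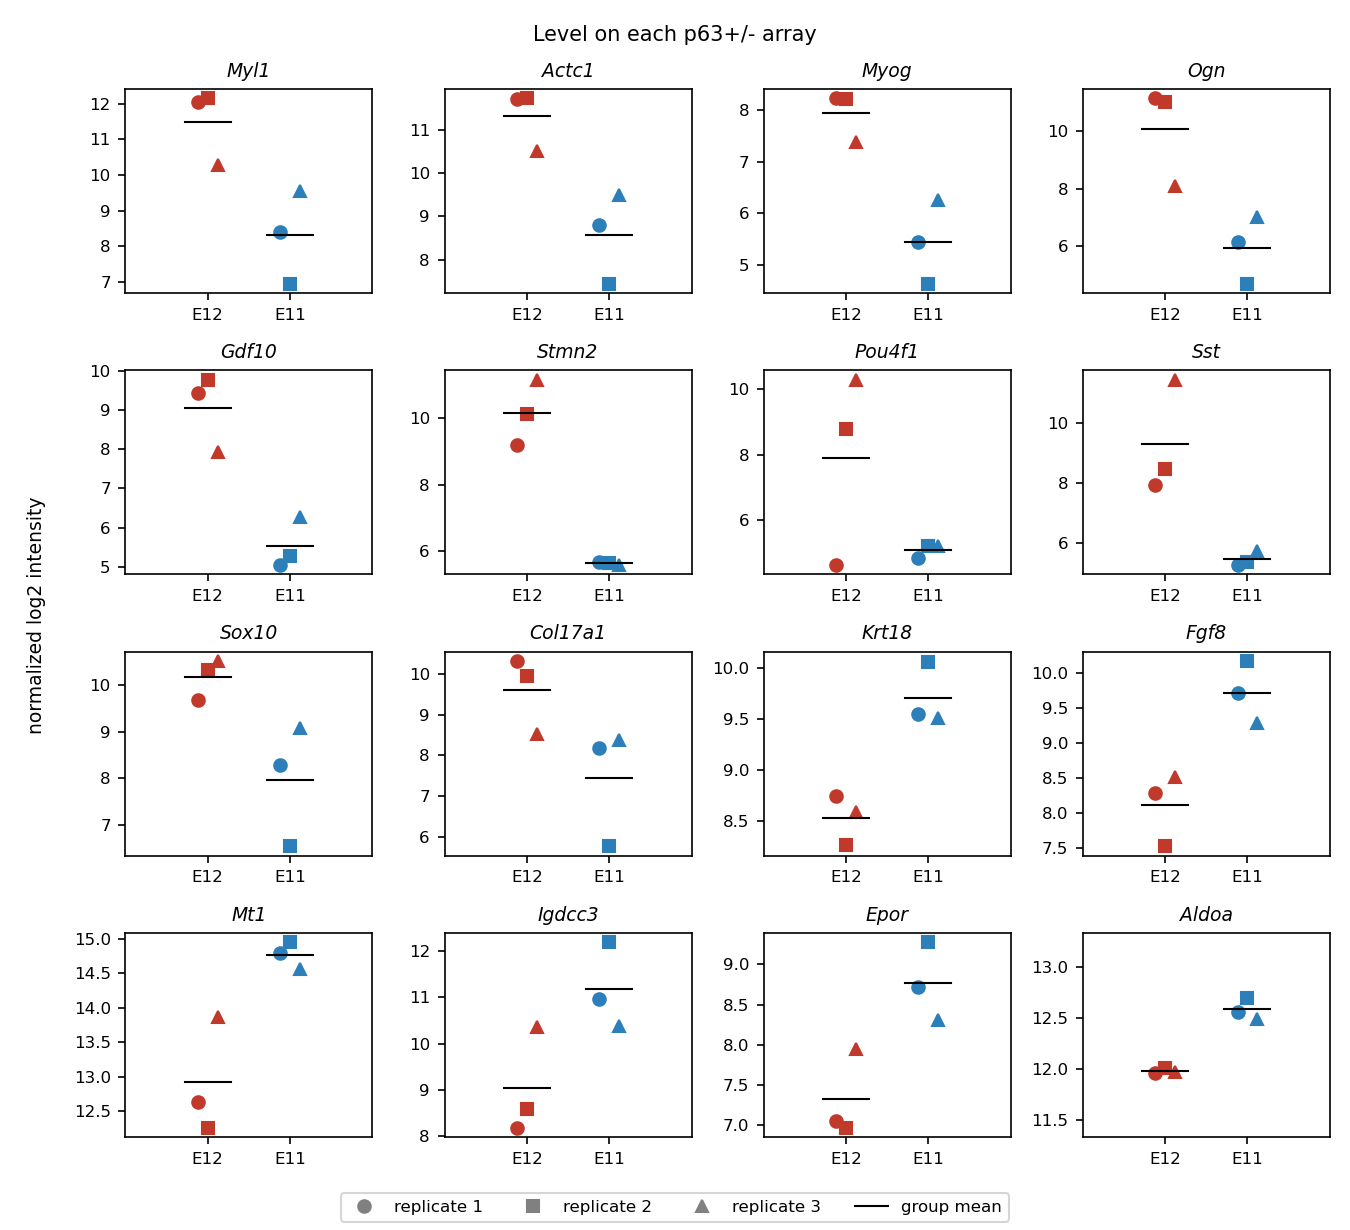
Normalized log2 intensity of 16 genes on the 3 E12 and the 3 E11 p63+/- arrays; circles, squares and triangles are replicates 1, 2 and 3, and the line is the group mean. E12 replicate 3 (triangles) lies nearest to E11 for Myl1, Ogn, Mt1 and Igdcc3 and highest for Stmn2, Pou4f1 and Sst, and the stages do not overlap for any gene shown except Pou4f1.

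Epithelial genes moved in both directions. Of 14 genes of the basal, stratifying layer measured, 2 were called higher and 0 lower (median 0.44), against 5.25% and 4.80% of all genes. Col17a1, a transmembrane collagen of the hemidesmosome and a marker of basal keratinocytes, was 10.33, 9.96 and 8.53 at E12, against 8.19, 5.75 and 8.39 at E11, a rise of 2.16 ± 0.53 (adjusted p = 0.0182), and 2 other probes rose by 1.84 and 1.48. Krt5, a basal keratin, was 7.95, 7.63 and 5.76 at E12, against 5.73, 5.12 and 6.43 at E11, a rise of 1.36 ± 0.39 (adjusted p = 0.0368) with overlap, since E12 replicate 3 lay at the E11 level. Its partner Krt14, at 12.94, 12.53 and 10.87 at E12, against 10.87, 10.51 and 11.10 at E11, showed the same split and did not pass (adjusted p = 0.0719). Without E12 replicate 3, 5 of the 14 basal genes were called higher, against 840 of all 12698 genes in that run. Col17a1 was lost without E11 replicate 2 or E12 replicate 1 or 2 (highest adjusted p = 0.094), and Krt5 without replicate 1 or 2 of either stage (highest adjusted p = 0.182), and both when the 6 arrays were fitted alone.

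Epithelial genes outside the basal layer gave calls downward. Of 20 general epithelial genes measured, 6 were called lower and 0 higher, against 4.80% and 5.25% of all genes, and 19 of the 20 changes were negative with a median of -0.47. Krt18, a keratin of simple epithelia and of the periderm, was 8.74, 8.27 and 8.59 at E12, against 9.56, 10.06 and 9.52 at E11, a difference of -1.18 ± 0.26 (adjusted p = 0.0131). Its partner Krt8 was 10.21, 9.64 and 9.96 at E12, against 10.88, 11.24 and 10.70 at E11, a difference of -1.0 ± 0.27 (adjusted p = 0.0269). St14, the membrane protease matriptase, fell by 0.95 (adjusted p = 0.0144), and the tight junction claudin Cldn7 by 0.82 (adjusted p = 0.0343). None of these 4 overlapped between the stages, and here E12 replicate 3 lay among the other E12 arrays. The count was 0 without E12 replicate 2, 1 without E11 replicate 2, 3 without replicate 1 of either stage and 2 with the Xist level as a covariate, under which Krt8 and Cldn7 were lost (adjusted p = 0.0672 and 0.067). Krt18 and St14 were lost without E11 replicate 2 or E12 replicate 2 (highest adjusted p = 0.0746 and 0.0814), Krt8 also without E11 replicate 1 (highest 0.132), and Cldn7 without replicate 1 or 2 of either stage (highest 0.178). St14 and Cldn7 were lost with the authors' processed values and Cldn7 when the 6 arrays were fitted alone.

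Signals of the oral and dental epithelium were read next. Fgf8, an epithelial growth factor that patterns the proximal jaw and marks the field where teeth start, was 8.28, 7.52 and 8.51 at E12, against 9.71, 10.17 and 9.28 at E11, a difference of -1.61 ± 0.42 (adjusted p = 0.0241). Dkk4, a secreted Wnt antagonist and Wnt target of placodes, was 5.34, 5.50 and 5.28 at E12, where it was detected on 1 of 3 arrays, against 6.42, 7.73 and 6.17 at E11, a difference of -1.40 ± 0.36 (adjusted p = 0.0215). Shh, a placode signal named after its values were seen, was 8.26, 8.24 and 8.63 at E12, against 9.26, 9.56 and 9.06 at E11. The Shh groups did not overlap, but the change of -0.92 ± 0.49 did not pass (adjusted p = 0.218). Sostdc1, a Bmp and Wnt antagonist that limits tooth number, rose by 0.50 ± 0.14 (adjusted p = 0.034), with E12 replicate 3 at 11.60 and the highest E11 array at 11.67. Irx1, a homeobox gene of the dental epithelium, was not detected on any E11 array and was at least 1.65-fold higher at E12 (adjusted p = 0.0202). In all, 2 of 15 placode and dental epithelium genes were called higher and 2 lower (median 0.31), against 5.25% and 4.80% of all genes, and the epithelial ligands Wnt4, Wnt6, Wnt7b and Wnt10a had changes between -0.24 and 0.52 that did not pass. Fgf8 and Sostdc1 were lost without replicate 1 or 2 of either stage (highest adjusted p = 0.13 and 0.184), and Dkk4 and Irx1 without E11 replicate 2 or E12 replicate 1 or 2 (highest adjusted p = 0.125 and 0.114). Dkk4 and Irx1 were also lost with the authors' processed values (adjusted p up to 0.0665 and 0.0713), and Dkk4 and Sostdc1 when the 6 arrays were fitted alone (Sostdc1 up to 0.123).

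Of 15 genes of the odontogenic mesenchyme, under the dental epithelium, 2 were called higher and 0 lower, against 5.25% and 4.80% of all genes. Inhba, the activin A subunit that tooth mesenchyme secretes, was 8.61, 8.49 and 7.00 at E12, against 6.53, 4.92 and 6.48 at E11, a rise of 2.06 ± 0.49 (adjusted p = 0.017) with no overlap. Sfrp2, a secreted Wnt modulator, was 11.50, 11.75 and 11.05 at E12, against 10.35, 10.04 and 10.49 at E11, a rise of 1.14 ± 0.26 (adjusted p = 0.013). The other 13 genes did not pass (median 0.39), among them the transcription factors Msx1, Barx1 and Lhx6 with changes of 0.15, 0.39 and 0.48. Osr2, which restricts teeth to a single row and is named after its values were seen, was 13.47, 13.43 and 12.65 at E12, against 12.36, 11.60 and 12.60 at E11, a change of 1.00 ± 0.39 (adjusted p = 0.102). Among 23 genes that pattern the lower jaw mesenchyme, such as Dlx5, Hand2 and Gsc, 0 were called in either direction and the median was 0.06. Over all genes, 10.1% were called. The lowest change of this list was that of Hand1, a factor of the distal midline, at 6.18, 5.51 and 6.31 at E12, against 6.67, 7.60 and 6.45 at E11, without overlap and without passing (adjusted p = 0.0984). Inhba was lost without E11 replicate 2 or E12 replicate 1 or 2 (highest adjusted p = 0.101) and Sfrp2 without E11 replicate 2 or E12 replicate 2 (highest adjusted p = 0.0747), and Inhba when the 6 arrays were fitted alone.

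Of 11 erythroid genes measured, 2 were called lower and 0 higher, against 4.80% and 5.25% of all genes, and 9 did not pass, with a median of -0.72 and 10 negative changes. Epor, the erythropoietin receptor, was 7.05, 6.97 and 7.95 at E12, against 8.72, 9.27 and 8.30 at E11, a difference of -1.44 ± 0.39 (adjusted p = 0.0266). Klf1, the erythroid Kruppel-like factor, was 8.91, 8.74 and 10.02 at E12, against 10.53, 11.24 and 10.09 at E11, a difference of -1.40 ± 0.42 (adjusted p = 0.0407). The adult alpha globin Hba-a1, named after its values were seen, was 15.76, 15.81 and 15.79 at E12, against 15.81, 15.84 and 15.84 at E11, close to the highest level on these arrays, where differences are compressed. Outside that list, Pklr, Hemgn, Gfi1b, Slc38a5, Icam4 and Sptb were among the 15 lowest measured differences. Pklr, the pyruvate kinase of red cells and liver, was not detected on any E12 array and 6.91, 7.94 and 6.42 at E11, at least 3.04-fold lower at E12 (adjusted p = 0.00907), and 2 other probes fell by 1.12 and 1.24. Hemgn, a nuclear protein of blood precursors, was 7.42, 7.29 and 9.41 at E12, against 10.10, 10.49 and 9.72 at E11 (-2.06 ± 0.50, adjusted p = 0.0177), while a second probe changed by -0.16. Gfi1b, a repressor needed for red cell and platelet precursors, fell by 1.74 on its main probe (adjusted p = 0.0239) and by 1.78 on a second. Slc38a5, an amino acid transporter, was 8.68, 8.44 and 10.01 at E12, against 11.02, 11.55 and 10.74 at E11 (-2.06 ± 0.43, adjusted p = 0.00918). Icam4, a red cell adhesion protein, fell by 1.55 (adjusted p = 0.0252), and Sptb, the spectrin of the red cell membrane, fell by 1.54 (adjusted p = 0.0273), while 2 other probes of Sptb changed by 0.09 and -0.56 without passing. E12 replicate 3 lay nearest to the E11 arrays in each of the called genes except Pklr. The count of erythroid genes was 0 without replicate 1 or 2 of either stage and 4 without E12 replicate 3, without E11 replicate 3 or with the Xist covariate. Pklr was lost without E11 replicate 2 (adjusted p = 0.0584), Slc38a5 without that array or E12 replicate 2 (highest 0.058), Hemgn also without E12 replicate 1 (highest 0.105), and Epor, Gfi1b, Icam4 and Sptb without replicate 1 or 2 of either stage (highest 0.136, 0.136, 0.118 and 0.145), as was Klf1, which was lost without E13 p63-/- replicate 2 as well (highest 0.191). Pklr, Gfi1b and Epor were also lost with the authors' processed values (adjusted p = 0.0864, 0.0787 and 0.0685), and Hemgn, Icam4, Sptb and Klf1 when the 6 arrays were fitted alone (highest 0.0624, 0.053, 0.0736 and 0.0723).

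The metallothioneins Mt1 and Mt2, small proteins that bind zinc and copper, fell side by side. Mt1 was 12.64, 12.26 and 13.86 at E12, against 14.79, 14.95 and 14.56 at E11, a difference of -1.85 ± 0.34 (adjusted p = 0.00615). Mt2 was 5.72, 5.63 and 6.40 at E12, against 7.85, 8.57 and 7.42 at E11, a difference of -2.04 ± 0.36 (adjusted p = 0.00592). Neither gene overlapped between the stages, and both held in all 24 runs that left out 1 array and in every other alternative. The genes lie next to each other on chromosome 8. Their promoters are shown because both fell, and metal response elements, which the factor Mtf1 binds, are background knowledge of these genes. The sequences are on build GRCm38.p6 as above, with matches to TGCGCNC or TGCACNC on either strand in capitals.
Mt1, chr8:94178839-94179138, plus strand: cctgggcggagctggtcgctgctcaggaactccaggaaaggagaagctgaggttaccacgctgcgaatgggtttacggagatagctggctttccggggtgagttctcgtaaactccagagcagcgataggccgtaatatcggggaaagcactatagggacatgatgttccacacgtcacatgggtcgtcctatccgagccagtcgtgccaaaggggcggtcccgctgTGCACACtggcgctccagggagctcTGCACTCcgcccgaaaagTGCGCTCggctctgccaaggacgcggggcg
Mt2, chr8:94172368-94172667, plus strand: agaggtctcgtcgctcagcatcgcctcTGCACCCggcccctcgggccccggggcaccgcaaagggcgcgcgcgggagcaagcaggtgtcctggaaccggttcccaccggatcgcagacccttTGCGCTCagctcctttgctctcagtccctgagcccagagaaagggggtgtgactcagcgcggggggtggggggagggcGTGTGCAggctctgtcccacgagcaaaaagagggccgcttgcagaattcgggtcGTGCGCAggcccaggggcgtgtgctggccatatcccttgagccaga
Mt1 held 1 match to the motif with CG in its core and 2 to the other, and Mt2 held 2 of each. Of all 32851 promoters, 15.4% held the motif with CG and 12.6% the other.

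Vegfd, Mrap, Tlcd4 and Nxpe2 were also among the 15 lowest measured differences. Vegfd, a growth factor for lymphatic vessels, was 7.48, 7.39 and 8.41 at E12, against 9.53, 9.37 and 9.23 at E11 (-1.62 ± 0.33, adjusted p = 0.00876). Mrap, an accessory protein of melanocortin receptors, was 4.72, 4.83 and 5.62 at E12, where it was detected on 1 of 3 arrays, against 7.18, 8.02 and 6.15 at E11 (-2.06 ± 0.51, adjusted p = 0.0203). Tlcd4, a membrane protein with a TLC domain, and Nxpe2, of the neurexophilin-like family, fell by 2.02 and 1.64 (adjusted p = 0.00989 and 0.0225). None of the 4 overlapped between the stages, and E12 replicate 3 was the highest E12 array in each. Vegfd was lost without E12 replicate 2 (adjusted p = 0.0561), Tlcd4 without that array or E11 replicate 2 (highest 0.0641), Nxpe2 also without E12 replicate 1 (highest 0.118), and Mrap without replicate 1 or 2 of either stage (highest 0.115). Mrap and Nxpe2 were also lost with the authors' processed values (adjusted p = 0.126 and 0.075).

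Genes that mark early embryonic cells and are known to decline as tissues mature were read as a list. Of 9 such heterochronic and early embryonic regulators measured, 2 were called lower and 0 higher, against 4.80% and 5.25% of all genes, all 9 changes were negative and the median was -0.54. Sall4, a zinc finger factor of early embryonic and limb progenitors, was 7.62, 7.52 and 8.90 at E12, against 9.48, 10.40 and 9.05 at E11, a difference of -1.63 ± 0.42 (adjusted p = 0.023), and a second probe fell by 1.47. Lin28b, the RNA-binding inhibitor of let-7 processing, was 6.77, 6.58 and 7.75 at E12, against 8.13, 8.99 and 7.64 at E11, a difference of -1.22 ± 0.35 (adjusted p = 0.0343) with overlap. Trim71, a ubiquitin ligase repressed by let-7 and named after its values were seen, was 6.20, 6.27 and 7.74 at E12, against 8.03, 8.54 and 7.55 at E11 and did not pass (adjusted p = 0.0689). Igdcc3, an immunoglobulin-like surface protein among the lowest differences, was 8.18, 8.59 and 10.36 at E12, against 10.97, 12.19 and 10.39 at E11 (-2.14 ± 0.56, adjusted p = 0.0234). On E12 replicate 3 all 4 genes were near or within the E11 range. Without that array 5 of the 9 regulators were called lower, against 641 of all 12698 genes in the same run. Sall4 was lost without E11 replicate 2 or E12 replicate 1 or 2 (highest adjusted p = 0.129), Lin28b and Igdcc3 without replicate 1 or 2 of either stage (highest 0.186 and 0.133), and all 3 when the 6 arrays were fitted alone, and Lin28b with the authors' processed values.

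**Figure D4:**
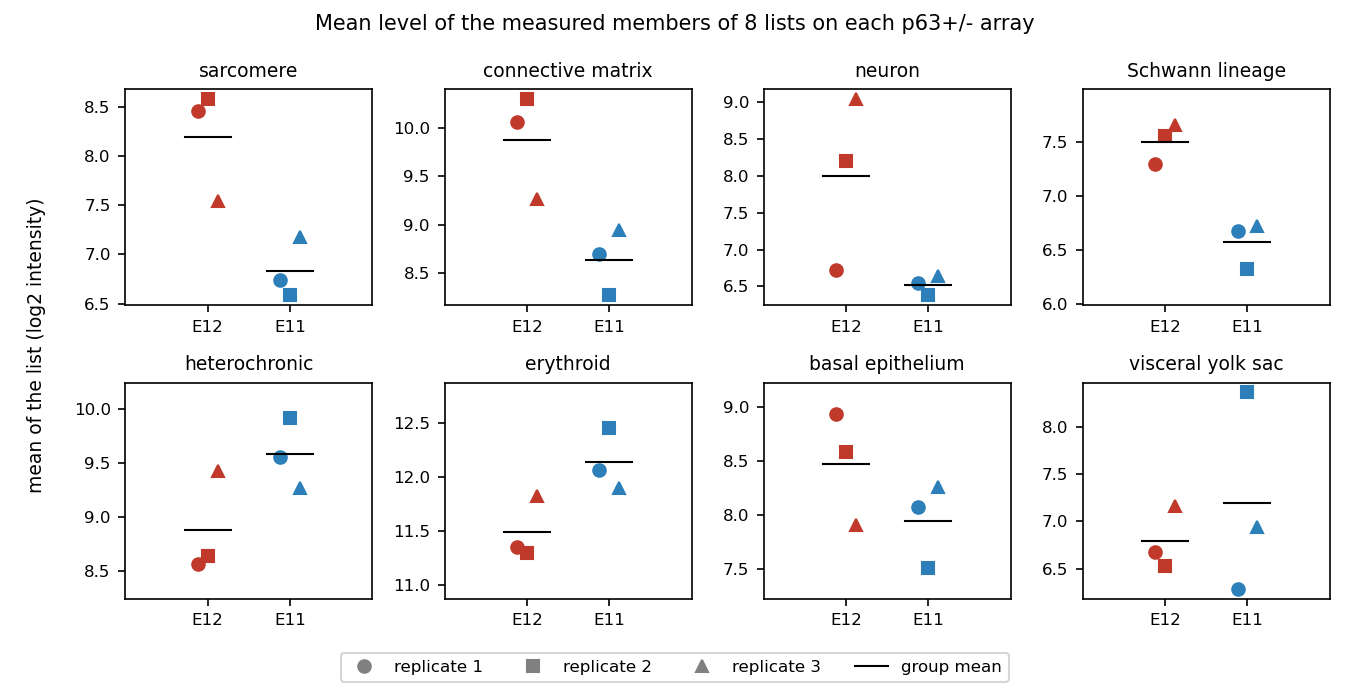
Mean normalized log2 intensity of the measured members of 8 gene lists on the 3 E12 and the 3 E11 p63+/- arrays; circles, squares and triangles are replicates 1, 2 and 3 and the line is the group mean. E12 replicate 3 lies nearest to the E11 arrays in sarcomere (7.54), connective matrix (9.27), heterochronic (9.43) and erythroid (11.83) means and highest in the neuronal mean (9.04), and E11 replicate 2 is highest in the yolk sac mean (8.36).

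Genes of growth and metabolism were read next. All 18 proliferation genes measured had a negative change (median -0.22), but only Cdk1, the kinase that starts mitosis, was called lower, against 4.80% of all genes, at 12.40, 12.21 and 12.28 at E12, against 12.79, 12.65 and 12.67 at E11 (-0.40 ± 0.09, adjusted p = 0.0118). Of 10 genes of cell cycle exit, 3 were called higher and 1 lower (median 0.19), against 5.25% and 4.80% of all genes. Cdkn1c, an imprinted inhibitor of cyclin-dependent kinases, was 15.44, 15.54 and 15.40 at E12, against 14.86, 14.61 and 15.18 at E11 (0.58 ± 0.14, adjusted p = 0.0173), near the top of the scale. Btg1, an antiproliferative protein, rose by 0.51 ± 0.11 (adjusted p = 0.00979), and Ccng2, a cyclin of resting cells, by 0.47 ± 0.12 (adjusted p = 0.0215). Cdkn1b, another kinase inhibitor, was the call downward, at 5.33, 5.60 and 5.43 at E12, where it was detected on 1 of 3 arrays, against 5.90, 6.14 and 6.15 at E11 (-0.61 ± 0.17, adjusted p = 0.0321). Of 15 glycolysis and hypoxia genes, 5 were called lower and 0 higher (median -0.24), against 4.80% and 5.25% of all genes. Aldoa, the muscle-type aldolase, was 11.97, 12.01 and 11.97 at E12, against 12.56, 12.70 and 12.49 at E11 (-0.60 ± 0.10, adjusted p = 0.00562), and held in all 24 runs. Ldha, lactate dehydrogenase A, fell by 0.45 (adjusted p = 0.017), Pfkl, a phosphofructokinase, by 0.42 (adjusted p = 0.0196) and Pdk1, which restrains pyruvate entry into mitochondria, by 0.60 (adjusted p = 0.0257), whereas second probes of Pfkl and Pdk1 changed by 0.24 and -0.01. The glycolysis count was 1 without E12 replicate 2 or E11 replicate 2. Cdk1 was lost without E12 replicate 2 (adjusted p = 0.0653), Cdkn1c without that array or E11 replicate 1 or 2 (highest 0.104), Btg1, Ldha and Pdk1 without E11 replicate 2 or E12 replicate 2 (highest 0.058, 0.0941 and 0.139), Pfkl and Ccng2 also without E12 replicate 1 (highest 0.0999 and 0.112), and Cdkn1b without any E12 array or E11 replicate 2 or 3 (highest 0.119). Cdk1, Cdkn1c, Btg1, Ccng2, Ldha and Pdk1 were also not called when the 6 arrays were fitted alone (highest adjusted p between 0.0519 for Pdk1 and 0.0674 for Ccng2), nor Cdkn1b with quantile normalization, the authors' processed values or the Xist covariate (highest 0.0864).

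Of 13 measured genes linked to retinoic acid, the vitamin A derivative that patterns the face, 3 were called higher and 0 lower (median 0.17), against 5.25% and 4.80% of all genes. The 3 calls were enzymes of its synthesis. Among the others, 4 had negative changes that did not pass, the lowest being Rbp4 at -0.97. Rbp4 also belongs to the visceral yolk sac endoderm list, whose mean was highest on E11 replicate 2 at 8.36. Aldh1a3 was 7.71, 7.78 and 7.44 at E12, against 6.41, 5.40 and 6.89 at E11 (1.41 ± 0.27, adjusted p = 0.00698), with no overlap and in all 24 runs, though not when the 6 arrays were fitted alone. Aldh1a2 was 8.68, 8.80 and 7.53 at E12, against 6.59, 7.10 and 7.63 at E11 (1.23 ± 0.37, adjusted p = 0.0406), and Rdh10, which makes their substrate, was at least 1.26-fold higher at E12, being undetected at E11 (adjusted p = 0.0238). Aldh1a2 was lost in 6 of the 24 runs, among them those without replicate 1 or 2 of either stage (highest adjusted p = 0.181), with the Xist covariate (0.085), with the replicate block, with the authors' processed values and with the 6 arrays fitted alone, and Rdh10 without E11 replicate 2 or E12 replicate 2 (highest 0.121), with the Xist covariate (0.0506) and with the authors' processed values. Among 16 target genes that read out signalling pathways of the jaw, 1 was called lower and 0 higher (median -0.17), near the 4.80% of all genes called lower: Notum, a secreted enzyme that inactivates Wnt proteins, was 6.76, 6.59 and 7.59 at E12, against 7.77, 7.71 and 7.77 at E11 (-0.77 ± 0.21, adjusted p = 0.0265), and 2 further probes fell by 0.64 and 0.56. Notum was lost without any E11 array or without E12 replicate 1 or 2 (highest adjusted p = 0.153) and when the 6 arrays were fitted alone. Of 17 imprinted genes, 2 were called higher and 1 lower (median 0.03), against 5.25% and 4.80% of all genes, the second share being near that of all genes. Plagl1, a zinc finger factor of the imprinted network, was not detected on any E12 array and 6.10, 6.13 and 6.25 at E11, at least 1.60-fold lower at E12 (adjusted p = 0.00819), while a second probe changed by -0.36 without passing. Rian, a noncoding RNA of the Dlk1 region, was undetected at E11 and at least 1.21-fold higher at E12 (adjusted p = 0.0179), a call lost without replicate 1 or 2 of either stage (highest adjusted p = 0.0676) and with the authors' processed values. Cdkn1c, described above, was the other imprinted gene called higher.

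All 14 endothelial genes measured had a positive change, between 0.17 and 0.59 with a median of 0.46, against -0.01 over all genes. Of the 14, 8 did not overlap between the stages, against 36.7% of all genes in either direction, and 2 were called higher, against 5.25%. Cdh5, the cadherin of endothelial junctions, was 9.12, 9.16 and 9.07 at E12, against 8.48, 8.35 and 8.74 at E11 (0.59 ± 0.16, adjusted p = 0.0312), while a second probe changed by 0.12. Sox17, a factor of arterial endothelium, rose by 0.57 ± 0.17 (adjusted p = 0.0441), a call lost in 12 of the 24 runs, and Cdh5 was lost without replicate 1 or 2 of either stage (highest adjusted p = 0.141). Both were lost with the authors' processed values, and Sox17 with the Xist covariate. Pecam1, which marks all endothelium, was 9.10, 9.08 and 8.98 at E12, against 8.75, 8.79 and 9.10 at E11 and overlapped. Acta2, the smooth muscle actin that early skeletal and cardiac muscle also express, was 13.09, 12.89 and 12.44 at E12, against 11.12, 9.58 and 11.72 at E11 (2.00 ± 0.54, adjusted p = 0.0275), and 3 other probes rose by 1.58 to 1.83. Acta2 was the 1 call among 8 smooth muscle and pericyte genes (median 0.05), against 5.25% of all genes called higher. Its call was lost without replicate 1 or 2 of either stage (highest adjusted p = 0.16) and when the 6 arrays were fitted alone. Of 16 macrophage genes, 1 was called higher, near the 5.25% of all genes (median 0.04): the complement chain C1qa, undetected at E11, was at least 1.76-fold higher at E12 (adjusted p = 0.00633), while its partner C1qb was 8.32, 8.61 and 7.83 at E12, against 8.50, 7.80 and 8.35 at E11. Of 13 immediate early and heat shock genes, which respond to handling of tissue, 1 was called, near the 10.1% of all genes called in either direction, and the median was -0.19. It was the heat shock gene Hspa1a at 0.89 ± 0.23 (adjusted p = 0.024), lost without E11 replicate 2 or E12 replicate 1 or 2 (highest 0.139), with the authors' processed values and when the 6 arrays were fitted alone.

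The same step was then compared with that in p63-/- prominences, on other embryos hybridised to the same 2 slides. Between E11 and E12, 944 genes (7.43%) were called higher and 892 (7.02%) lower in p63-/-. Of the 667 genes called higher in p63+/-, 417 were called higher in p63-/- as well, which is 62.5% of the p63+/- calls and 44.2% of the p63-/- calls. For genes called lower the overlap was 370, or 60.7% and 41.5%, and 0 genes were called in opposite directions. Of the calls in p63+/-, 99.1% of those higher and 98.9% of those lower had the same sign in p63-/-, against 82.4% of all genes. Since both genotypes lie on the same slides at each stage, stage and slide cannot be told apart in these shares either.

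The test of the difference between the genotypes, in which an additive shift between slides cancels, called 0 of 12698 genes with limma after adjustment (0%), and 224 genes (1.76%) had an unadjusted p under 0.05. The smallest p was that of Sst. It was 7.92, 8.47 and 11.44 at E12, against 5.25, 5.37 and 5.72 at E11 in p63+/-, while in p63-/- it was 7.07, 8.10 and 8.43 at E12, against 10.30, 8.47 and 8.40 at E11. The changes of 3.83 in p63+/- and -1.19 in p63-/- differed by 5.02 ± 0.95 (unadjusted p = 4.47e-05, adjusted p = 0.567). The second was Spry4, an inhibitor of receptor tyrosine kinase signalling, with changes of -0.19 in p63+/- and 0.87 in p63-/- (adjusted p = 0.617). Its p63-/- levels were 7.66, 6.91 and 7.19 at E12, against 6.35, 6.32 and 6.47 at E11, and its p63+/- levels 6.71, 6.82 and 6.67 at E12, against 6.86, 6.93 and 6.99 at E11. Wnt3a, an epithelial Wnt ligand, changed by 0.98 in p63+/- and was not detected at E12 in p63-/- (adjusted p = 1 for the difference between genotypes). For Col17a1, which p63 is known to activate in skin, the change was 2.16 in p63+/- and 0.06 in p63-/-, where its levels stayed between 4.88 and 5.67, but the difference of 2.10 ± 0.74 did not pass (adjusted p = 1). For Myl1 and Ogn the changes of 3.18 and 4.15 in p63+/- stood beside 2.72 and 3.74 in p63-/-.

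The neighbouring steps in p63+/- differed in size. From E10 to E11, 98 genes (0.772%) were called higher and 83 (0.654%) lower at the later stage, and from E12 to E13, 1230 (9.69%) higher and 1127 (8.88%) lower. These steps share the E11 or the E12 arrays with the step described here, and each stage has its own slide. The contractile genes had 1 call higher in the first step, 13 here and 24 in the last, with medians of 0.36, 1.40 and 2.75. The matrix genes had 0, 8 and 14, with medians of 0.67, 1.32 and 1.31. The erythroid genes had 0, 2 and 6 calls lower, with medians of 0.52, -0.72 and -1.36. Stmn2 changed by 0.06, 4.50 and 0.06, and Mt1 by -0.03, -1.85 and -0.64. The test of the difference between the steps called 102 genes (0.803%) against E10 to E11 and 68 (0.536%) against E12 to E13. Among genes also called for E12 minus E11, those with the smallest p were close to background. Gpr161, a G protein-coupled receptor of the primary cilium, was 5.05, 4.86 and 4.80 at E12, where it was not detected, against 5.70, 5.84 and 5.81 at E11, and was at least 1.23-fold lower at E12. It was not detected at E10 either, so the test against the step before (adjusted p = 0.000127) is given without a size. Rhbdf2, an inactive rhomboid protein that carries a growth factor protease to the surface, was 5.98, 6.45 and 5.95 at E12, against 5.13, 4.87 and 4.67 at E11, where it was not detected, and was at least 1.42-fold higher at E12, so the test against the step after (adjusted p = 0.00197) is given without a size. Against the step before, 0 genes were called with the authors' processed values and 12 against the step after, and the cause of that was not tested. Without single arrays, the counts ran between 19 (without E11 replicate 3) and 156 for the step before and between 9 (without E12 replicate 2) and 136 for the step after.

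**Figure D5:**
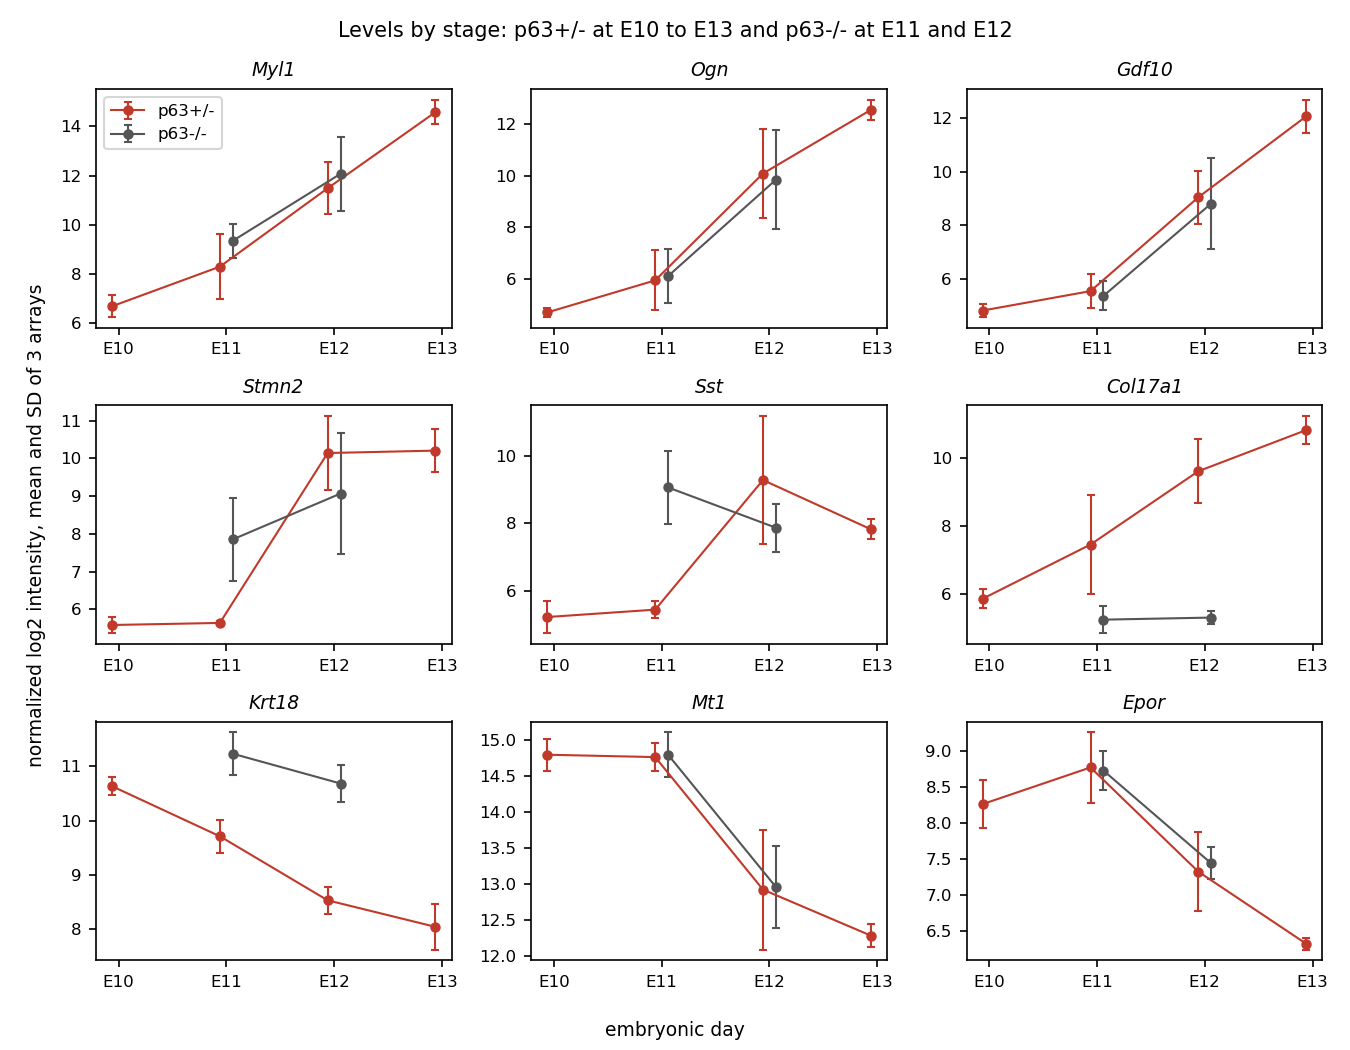
Mean and SD over 3 arrays of the normalized log2 intensity of 9 genes by embryonic day, in red for p63+/- at E10 to E13 and in grey for p63-/- at E11 and E12. In p63+/-, the means of Myl1 and Ogn are higher at each later stage, Stmn2 steps up by 4.50 between E11 and E12 and by 0.06 after it, Mt1 falls by 1.85 in that step, and Sst is 3.83 higher at E12 in p63+/- while in p63-/- it differs by -1.19.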

How the data were processed

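RNA of whole mandibular prominences was read on Illumina mouse bead arrays, 24 in all. Per the file headers, the authors deposited, for every array, the non-normalized intensity of 45281 probes with a detection p-value beside it. The authors' second deposited table holds processed values that fit a log2 scale and rank the probes of each array as the intensities do (rank correlation 1), with array medians of 7.922 to 7.932; their centring stays unknown. Tools listed in the submitters' processing notes are BeadStudio, lumi and RMA. GEO's platform table gave 34885 probes 1 gene, 18 several and 10378 none.

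Background correction, quantile normalization and the log2 step were done by neqc (limma 3.58.1 in R 4.3.3, offset 16, negative controls inferred from the detection p-values). A probe entered if detected (p under 0.05) on 3 or more arrays, and each of 12698 genes was read by its probe of highest mean. One limma fit over the 8 groups of 3 arrays gave every contrast, adjusted by Benjamini-Hochberg over all genes. On simulated log2 changes of 0.5, 1, 2 and 3 between E12 and E11, 17, 39, 48 and 49 of 50 genes were recovered, and 5 of 158 calls were false. The simulated noise was independent between genes and arrays, with the same spread in every group. It held no array that stood apart in many genes and no slide effect, so these rates do not carry over to the calls above. The number of arrays limits the precision.

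Genes named were Trp63, the 15 highest and 15 lowest called changes without overlap, up to 4 called members of each list, and the smallest p-values of the tests of differences between steps. The other genes, markers included, were chosen after their values were seen. The groups compared, the 27 lists (376 measured entries of 476) and the tests were chosen with earlier results of these data known. Same-numbered E12 and E11 arrays did not deviate together (correlations of -0.0177, -0.249 and -0.253). Other normalizations, filters, probe rules, array weights, smaller fits, a replicate block and leaving out each array were tried.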

Additional observations from a re-analysis of the deposited data

Results flagged for a closer look

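Of 24233 probes kept, 3737 had no gene name in the platform table and entered no comparison above. In a fit over all kept probes, 178 of them were called higher at E12 than at E11 in p63+/- and 127 lower. In a separate fit over the 20496 kept probes with 1 gene, 986 were called higher and 949 lower. The 5.25% and 4.80% given above are shares of genes, each read by its probe of highest mean, and so are not a like measure. Which transcripts these probes read was not determined.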

How the results depend on the processing

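Without the detection filter 1274 of the 1277 genes called kept their sign, and with the stricter filter 1197 of the 1198 still measured. Under the other alternatives all 1277 did, which leaving out 1 of the arrays not compared could not alter. The number of genes called for E12 minus E11 in p63+/- was 1281 with quantile normalization and no background correction, 1286 with an offset of 50, 1047 with the authors' processed values, 923 with the 6 arrays normalized and fitted alone, 890 with them fitted alone, 1451 without the detection filter (703 higher and 748 lower, against 667 and 610), 1243 with a stricter one and 1261 with the Xist covariate, added after the data were seen. It was 3168 with array weights (1587 higher and 1581 lower). Over all detected probes, 1935 probes were called (949 lower), and by the probe that stands for each gene 1217 genes. Leaving out single arrays gave 146 to 1817 calls in all, 84 to 933 higher and 62 to 884 lower, with the lowest counts without E12 replicate 2 and the highest without E10 p63-/- replicate 3. Genes higher by at least 1 (log2) numbered 88 with quantile normalization, 34 with the authors' values, 138 with the 6 arrays normalized alone and 51 to 334 without single arrays; genes lower by as much numbered 20 with quantile normalization, 43 with the larger offset, 12 with the authors' values and 14 to 105 without single arrays. The difference between genotypes gave 0 calls under every alternative, leave-one-out runs included (0 to 0). The difference from the step before gave 13 calls with quantile normalization, 65 with the larger offset, 0 with the authors' values, 191 without the filter, 181 probes over all probes, 521 with array weights and 19 to 156 without single arrays. The difference from the step after gave 37 with quantile normalization, 12 with the authors' values, 140 with the compared arrays normalized alone and 118 fitted alone, 31 without the filter, 117 probes over all probes, 487 with array weights, 8 with the Xist covariate and 9 to 136 without single arrays. The causes of these shifts were not tested. With the replicate number as a block, 1359 genes were called for E12 minus E11, 1201 of them among the 1277; the numbers do not pair the 2 stages. Within a stage, same-numbered p63+/- and p63-/- arrays correlated at 0.408, 0.285 and 0.427 at E12 and at 0.0777, 0.199 and 0.0742 at E11, a hint from the data only, and a block for the replicate number within each stage left 0 calls for the difference between genotypes (448 at an unadjusted p under 0.05). Genes undetected in a stage have only a bound, and levels near the top of the scale, such as those of Cdkn1c and Hba-a1, leave little room for a difference.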

Other observations

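Calprotectin subunits, which neutrophils carry in bulk and stratified epithelium also makes, were outside the lists and the rule for named genes and were chosen after their values were seen. S100a8 was 9.95, 10.54 and 9.34 at E12, against 7.47, 7.21 and 8.38 at E11 (2.26 ± 0.56 SE, limma adjusted p = 0.0206), and S100a9 was 8.14, 8.80 and 7.80 at E12, against 5.79, 5.27 and 6.30 at E11 (2.46 ± 0.53, adjusted p = 0.0105). Neither overlapped between the stages. In p63-/- they changed by 0.34 and 0.33, and the differences between the genotypes did not pass. S100a8 was lost without replicate 1 or 2 of either stage (highest adjusted p = 0.106), and S100a9 without E11 replicate 2 or E12 replicate 2 (highest 0.0602) and with the authors' processed values.

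Among genes with a change of over 2 on the log2 scale in either direction that were not called, 2 lie on the Y chromosome. Eif2s3y was 4.72, 4.73 and 5.86 at E12, against 10.37, 7.57 and 10.22 at E11, and Kdm5d was 5.15, 4.61 and 4.93 at E12, against 9.42, 4.81 and 9.65 at E11. On E11 replicate 2, Xist was high at 11.28, Kdm5d was at background and Eif2s3y lay between the other arrays.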
